A study of Mus musculus with 8 samples.

Results

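The haemoglobin genes Hba-a1, Hba-a2, Hbb-b1 and Hbb-b2, the haem enzyme gene Alas2 and the red cell membrane gene Slc4a1 were followed across 8 RNA-seq libraries of mouse rib chondrocytes. The 6 genes were taken by symbol from a table of 18501 genes, in which all 6 were found. All 6 also passed the filter on low counts that left 14359 genes for testing. They serve here as a per-library reading of red cell transcripts in cultures of cartilage cells.

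The mice were 10 days old and of strain CD1, and 2 separately made changes to Mir140, the gene of a cartilage microRNA, had been introduced to raise its 5p arm. In the CG line the mutants carry an altered seed region of the 3p arm. In the C>T line, written CT below, the mutants carry a single C>T base change. Each line has its own wild types, which gives CG wild type, CG mutant, CT wild type and CT mutant, with 2 libraries in each of the 4 groups. All groups share the same preparation: rib cartilage digested with collagenase, cells filtered and plated, and RNA taken with TRIzol. Nothing in the labels tells if libraries of the same group are from separate mice or cultures, or how long cells stayed in culture. The p-values therefore reflect variation from library to library, part of which may be technical. The lines also differ in whatever else separated the 2 sets of mice and preparations, and these cannot be told apart from the line itself.

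Haemoglobin is built of alpha and beta globin chains, each holding a haem group, and it fills the red cell. Alas2 is the erythroid form of the first and rate-limiting enzyme of haem synthesis, and Slc4a1 encodes band 3, the anion exchanger and main integral protein of the red cell membrane. Young red cells, the reticulocytes, have lost their nucleus and still carry these messages. Globin transcripts have also been described in cartilage cells themselves. Mouse strains differ at the beta globin locus: the diffuse haplotype carries Hbb-b1 (beta major) and Hbb-b2 (beta minor), and the single haplotype carries Hbb-bs and Hbb-bt, which encode the same chain. CD1 is an outbred stock.

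The globin genes are near copies, which bears on how reads could be assigned to them. In the GENCODE M21 transcripts on GRCm38, the 429-base coding sequences of Hba-a1 and Hba-a2 differed at 1 position, C381T counted from the A of the start codon with the Hba-a1 base first. The 444-base coding sequences of Hbb-bs and Hbb-bt also differed at 1 position, C417T with the Hbb-bs base first. The 25 bases around each of these positions are shown 5′ to 3′ because all that tells the coding sequences of a pair apart is the base in capitals.
Hba-a1: tgcctctctggaCaaattccttgcc
Hba-a2: tgcctctctggaTaaattccttgcc
Hbb-bs: ggctggagtggcCgctgccctggct
Hbb-bt: ggctggagtggcTgctgccctggct

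The counts bear the mark of that similarity. Of the 16 values of Hba-a1 and Hba-a2, 15 were not whole numbers, while their sum was whole to within 0.02 in 8 of 8 libraries. Of the 32 values of Hbb-b1, Hbb-b2, Hbb-bs and Hbb-bt, 26 were not whole, and the sum of these 4 genes was whole in 8 of 8 libraries. The sum of Hbb-b1 and Hbb-b2 alone was whole in 2 libraries. Reads were therefore divided within the alpha pair and among the 4 adult beta genes, and the level of a single copy is less certain than the level of its family.

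RefSeq promoters, 250 bases before to 50 after the start on GRCm38.p6, were matched for 3 of the 6 genes: Hba-a1, Hba-a2 and Alas2. Over the 297 bases that the Hba-a1 and Hba-a2 windows share, 0 bases differed. The stretches below are shown because these genes moved together across the libraries. Each holds a match to the letters AGATAA or TGATAA, searched on both strands and given in capitals, which are the core of the motif of GATA factors such as the erythroid Gata1. Such a match is found in 18.6% of the 32851 promoter windows of this length, so it is a description of the window and not of a site in use. The matches begin 183 bases before the start in Hba-a1 and 86 bases before it in Alas2, where the match is on the opposite strand. In Hbb-bs, printed for comparison, the match begins 210 bases before the start, and Hbb-bt has 0 matches to these letters in its window.
Hba-a1, chr11:32283477-32283506, + strand: tgtccgggcaacTGATAAggattccctgca
Alas2, chrX:150547319-150547348, + strand: ctactttgctttTTATCTttagcagaggcc
Hbb-bs, chr7:103828121-103828150, - strand: tgttctctgcacAGATAAggacaaacatta

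Other letters of globin promoters were searched in the same windows on both strands. CCAAT occurred 1 time in Hba-a1, Hba-a2 and Hbb-bs, 3 times in Hbb-bt and 0 times in Alas2, and in 37.4% of all windows. ATATAA occurred 1 time in Hba-a1, Hba-a2, Hbb-bs and Hbb-bt, at 28 to 31 bases before the start, and 0 times in Alas2. It is held by 9.82% of all windows. CACCC was found in all 5 of these windows and in 57.5% of all windows.

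The libraries held 26536868 to 28678641 counts each. On the first principal component of all tested genes, with 64.5% of the variance, the 4 CG libraries (-57 to -43.3) and the 4 CT libraries (44.7 to 51.3) fell apart. On the second, with 12.2%, CG mutant replicate 1 stood at -47 against -9 to 26.8 for the other 7. That library also had the lowest level of Hba-a1, so differences of the 6 genes that rest on CG mutants are given with and without it. Cartilage markers were abundant in every library: Col2a1, the main cartilage collagen, ran from 24100 to 50200 CPM (counts divided by the TMM-adjusted library size and scaled to a common total), and Acan, the main cartilage proteoglycan, from 2760 to 6970 CPM.

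All 6 genes were higher in the CT libraries than in the CG libraries, for wild types and for mutants. The gap was wide in every CT library for all but Hba-a2. In CT wild type replicate 2 Hba-a2 was at 6.37 CPM, against 3.01 CPM in CG wild type replicate 2. With wild types compared, 6 of 6 passed the test (edgeR's quasi-likelihood test, Benjamini-Hochberg adjusted over all genes, threshold 0.05) and were higher in CT, where 17% of all genes tested were called higher and 33.7% in either direction. With mutants compared, 6 of 6 also passed and were higher in CT, against 17.9% of all genes called higher and 36.1% in either direction. Both CT libraries lay above both CG libraries for 6 of 6 genes in each comparison, against 35.7% of all genes between wild types and 35.5% between mutants. Hbb-b1, Hbb-b2, Alas2 and Slc4a1 held 0 to 9 counts per CG library and passed the low-count filter only through the CT libraries. Once tested, these genes could hardly be called lower in CT, so the 6 of 6 owes part of its size to the filter. The median log2 fold change of the 6 genes was 7.59 between wild types and 7.66 between mutants, and over all genes it was 0.00322 and -0.00992. These are sums over whole cultures, in which fewer cells of a type and less RNA per cell cannot be told apart. The number of red cells in each culture is not in the labels, and their part in the levels was not tested.

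Hba-a1 encodes the alpha chain and was the most abundant of the 6 by FPKM, the unit that corrects for transcript length, in each group. It stood at 5.41 and 5.65 CPM in CG wild types and 1.22 and 5.12 CPM in CG mutants. In CT wild types it reached 1170 and 840.1 CPM, and in CT mutants 454 and 603.5 CPM. The lowest CT library was thus far above the highest CG library, and within CG only mutant replicate 1 departed from a narrow range. Mean CPM was 181.6-fold higher in CT wild types (1005 ± 233, SD, n = 2) than in CG wild types (5.53 ± 0.169, n = 2). The log2 fold change of Hba-a1 was 7.50 ± 0.52 (SE; edgeR adjusted p = 0.00017). Between mutants the ratio was 166.8, with a log2 fold change of 7.37 (edgeR adjusted p = 0.000207). That became 6.69 without CG mutant replicate 1 (edgeR adjusted p = 9.49e-05) and 8.76 without CG mutant replicate 2 (4.16e-05).

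Hba-a2, the near copy of Hba-a1, was at 1.14 and 3.01 CPM in CG wild types and 0.401 and 1.86 CPM in CG mutants. It was at 312.5 and 6.37 CPM in CT wild types and 116.4 and 164.2 CPM in CT mutants. CT wild type replicate 2 was low for Hba-a2 and not for Hba-a1: Hba-a2 made up 0.751% of the alpha counts there and 20.4% to 21.4% in the other 3 CT libraries. In the CG libraries, with 39 to 217 alpha counts, its share ran from 17.7% to 34.6%. Its line differences passed with edgeR adjusted p of 0.02 between wild types and 0.0163 between mutants, at 76.82-fold and 123.9-fold. They are the least secure of the 6. The wild-type difference did not pass without CT wild type replicate 1 (log2 1.63, edgeR adjusted p = 0.0978), CG wild type replicate 1 (0.118) or CG wild type replicate 2 (0.095). The mutant difference did not pass without CG mutant replicate 1 (edgeR adjusted p = 0.0687) or CT mutant replicate 2 (0.0505). Its log2 fold change of 6.91 became 6.22 without CG mutant replicate 1 and 8.38 without CG mutant replicate 2.

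Hbb-b1, beta major, had 0 counts in each CG wild type, and 1.11 and 1.17 counts in the CG mutants. In CT wild types it was counted 28765 and 18146 times, which is 1014 and 616.9 CPM, and in CT mutants 5573 and 15398 times, which is 182.2 and 521 CPM. It thus went from near absence in one line to a level in CT that was next to that of Hba-a1. Against a floor of 3 counts per library, Hbb-b1 was at least 7143-fold higher in CT wild types than in CG wild types (edgeR adjusted p = 0.000261). Between mutants the ratio was 7752, with a 95% counting interval of 2446 to 72970 from the 2 counts in CG (edgeR adjusted p = 0.000299, and 0.00122 without CG mutant replicate 1). Intervals and floors of this kind cover counting error only.

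Hbb-b2, beta minor, was counted 0 times in each of the 4 CG libraries. In CT wild types it was counted 4412 and 2750 times and in CT mutants 935.9 and 2457 times. It was at least 1091-fold higher in CT between wild types (edgeR adjusted p = 0.000908) and at least 475.5-fold higher between mutants (0.00112, and 0.00231 without CG mutant replicate 1). Hbb-b2 kept close to Hbb-b1: it made up 13.2% to 14.4% of the 2 genes' counts in the 4 CT libraries, while Hbb-b1 itself varied from 182.2 to 1014 CPM.

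**Figure D1:**
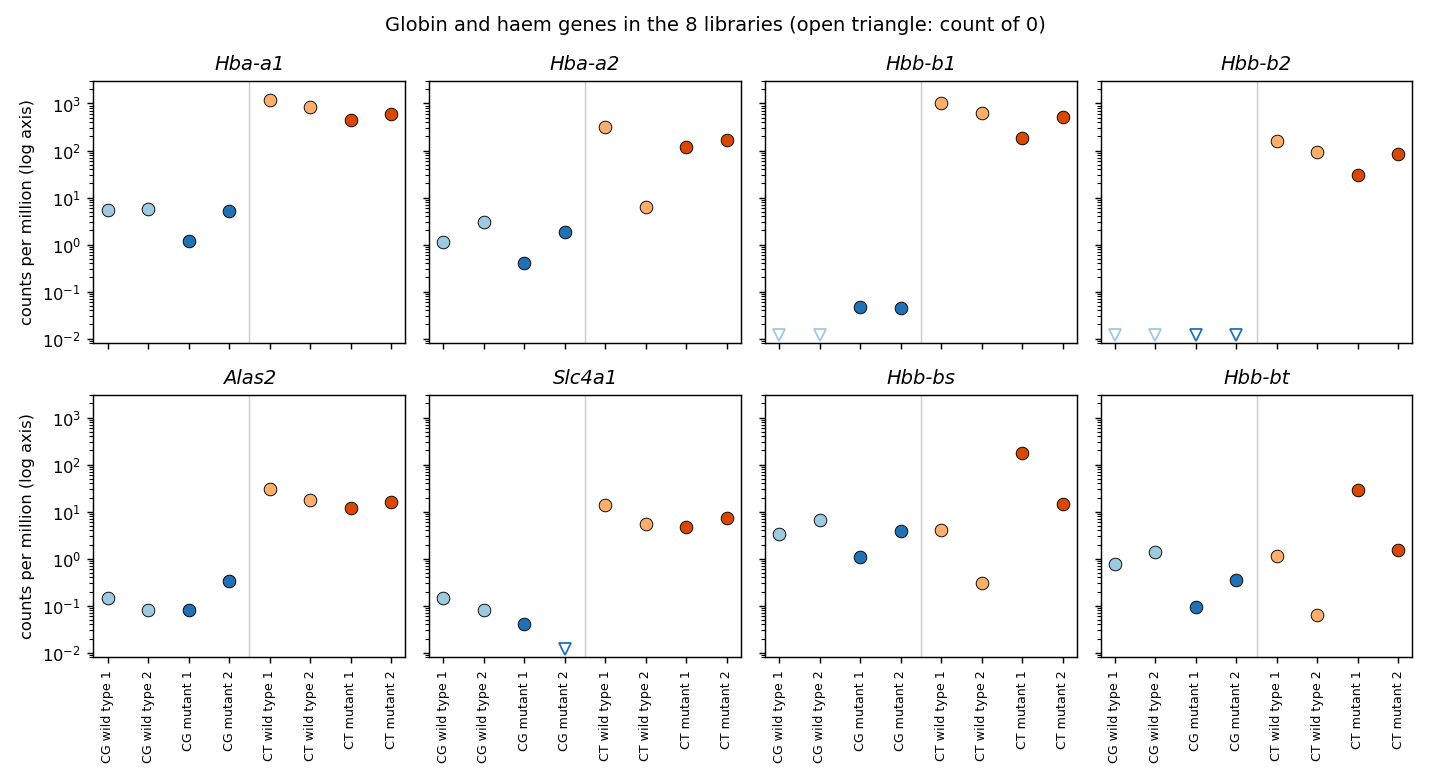
CPM of the 6 genes and of Hbb-bs and Hbb-bt in each of the 8 libraries, on a log axis, with a count of 0 drawn as an open triangle at the bottom. The 4 CT libraries lie above the 4 CG libraries for all 6 genes, and Hbb-bs and Hbb-bt show CT mutant replicate 1 highest and CT wild type replicate 2 lowest.

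The CG libraries were not without adult beta globin, which lay in the genes of the other haplotype. The CG wild types had 92.3 and 169 counts of Hbb-bs and the CG mutants 26.6 and 101. It was counted 118 and 8.97 times in CT wild types and 5323 and 429 times in CT mutants. For Hbb-bt the counts were 21.7 and 34.1 in CG wild types, 2.26 and 9.21 in CG mutants, 31.8 and 1.88 in the wild types of the CT line and 892.6 and 44.2 in its mutants. CT mutant replicate 1 was therefore high in both, while CT and CG wild types overlapped in Hbb-bs and the highest Hbb-bt of the wild types was a CG library.

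As a share of the 4 adult beta genes, Hbb-b1 and Hbb-b2 together were 0% and 0% in CG wild types. They were 3.33% and 0.901% in CG mutants, which rests on 1 to 2 counts. They were 99.5% and 99.9% in CT wild types, 51.2% in CT mutant replicate 1 and 97.4% in CT mutant replicate 2. The libraries thus fell into 3 kinds: all but entirely Hbb-bs and Hbb-bt (CG), all but entirely Hbb-b1 and Hbb-b2 (3 of the CT libraries), and near equal amounts of both pairs (CT mutant replicate 1). The haplotypes of the mice are not in the labels, and their part in these shares was not tested.

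Hbb-bs and Hbb-bt did not follow the 6 genes between wild types. There Hbb-bs had a log2 fold change of -1.18 ± 1.32 (edgeR adjusted p = 0.522) and Hbb-bt of -0.85 (0.691). Between mutants both passed and were higher in CT, by 38.12-fold (edgeR adjusted p = 0.0175) and 68.87-fold (0.0198). Without CT mutant replicate 1 neither of these differences passed, at edgeR adjusted p of 0.144 and 0.154, and the log2 fold change was 2.53 against 5.23 for Hbb-bs and 2.75 against 6.11 for Hbb-bt. Without CG mutant replicate 1 they also missed the threshold, at 0.07 and 0.0788. Hbb-bt further missed it without CG mutant replicate 2, at 0.0533.

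**Figure D2:**
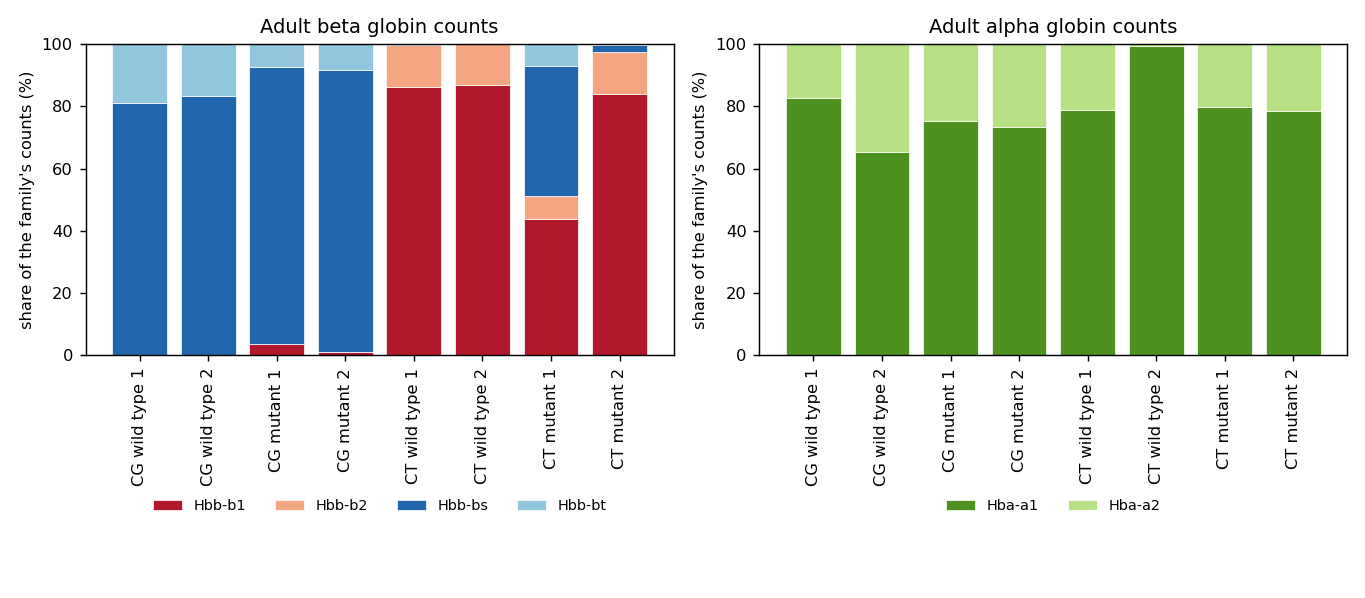
Share of each adult beta globin gene in the counts of the 4 adult beta genes (left) and of each alpha gene in the counts of the alpha pair (right), in percent, for each library. Hbb-bs and Hbb-bt fill the CG bars, Hbb-b1 and Hbb-b2 fill 3 of the CT bars, CT mutant replicate 1 is split at 51.2%, and Hba-a2 is 0.751% in CT wild type replicate 2.

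The balance of chains was steadier than the balance of copies. The 4 adult beta genes together made up 42.2% to 45.6% of the counts of the 6 adult globin genes (Hba-a1, Hba-a2, Hbb-b1, Hbb-b2, Hbb-bs and Hbb-bt) in the CT libraries. In the CG libraries the share was 37.8% to 48.3%, from far fewer counts. CT mutant replicate 1, with its mixed beta genes, had 42.2%, which is next to the 44.2% to 45.6% of the other CT libraries.

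The CG wild types held 4 and 2 counts of Alas2 and the CG mutants 2 and 9. In CT wild types it was counted 857 and 532 times and in CT mutants 365 and 474 times. No CG library came near a CT library. Mean CPM was 215-fold higher in CT wild types (24.1 ± 8.58, n = 2) than in CG wild types (0.112 ± 0.046, n = 2), at a log2 fold change of 7.67 ± 0.52 (edgeR adjusted p = 0.000143). Between mutants the ratio was 65.57, with a log2 fold change of 5.97 (edgeR adjusted p = 0.00026). For Alas2 that became 5.33 without CG mutant replicate 1 (edgeR adjusted p = 0.000619) and 7.31 without CG mutant replicate 2 (0.000346).

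Slc4a1 had 4 and 2 counts in the CG wild types, with 1 and 0 for the CG mutants, against 402 and 162 times in wild types of the CT line and 146 and 218 times in its mutants. Between wild types it was 87.6-fold higher in CT (log2 6.38 ± 0.69, edgeR adjusted p = 0.000685), and its log2 fold change was 5.54 without CT wild type replicate 1 (0.00226). Between mutants the ratio was 305.4, with a 95% counting interval of 54.81 to 12060 from the 1 count in CG (edgeR adjusted p = 0.000714). It also passed without CG mutant replicate 1, which leaves Slc4a1 at 0 counts in CG mutants (0.00302), and without CG mutant replicate 2 (log2 7.04, 0.00306).

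Per length of transcript, the order of the 6 genes in CT wild types was Hba-a1 (2263 ± 467 FPKM, SD, n = 2), Hbb-b1 (1590 ± 508), Hba-a2 (350.7 ± 475), Hbb-b2 (242.8 ± 79.6), Alas2 (13.4 ± 4.41) and Slc4a1 (2.29 ± 1.37). Hba-a1 and Hbb-b1 were within the sum of their SDs of each other, and so were Hba-a2 and Hbb-b2. Alas2 stood apart from Hba-a1, Hbb-b1, Hbb-b2 and Slc4a1, and not from Hba-a2. In CT wild type replicate 2 Hba-a2 was at 14.5 FPKM, between the Alas2 values of 16.5 and 10.3 FPKM in CT wild type replicates 1 and 2.

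Summed over the 4 globin genes among the 6, the level was 6.56 and 8.66 CPM in CG wild types and 1.67 and 7.03 CPM in CG mutants. It was 2653 and 1557 CPM in CT wild types and 783.1 and 1372 CPM in CT mutants. The order of the group means was CT wild type (2105 ± 775 CPM), CT mutant (1077 ± 416), CG wild type (7.61 ± 1.49) and CG mutant (4.35 ± 3.79). The lines were tested wild type against wild type and mutant against mutant, and both differences passed. The differences between mutants and wild types within a line did not. The summed log2 fold change was 8.11 ± 0.66 between wild types (edgeR adjusted p = 0.000268) and 7.94 ± 0.67 between mutants (0.000281). The latter became 7.26 without CG mutant replicate 1 (edgeR adjusted p = 0.000258) and 9.34 without CG mutant replicate 2 (0.000134).

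As a share of all counts, these 4 genes were 0.00064% and 0.000818% in CG wild types and 0.000146% and 0.000685% in CG mutants. They were 0.272% and 0.166% in CT wild types, and the CT mutants had 0.0835% and 0.149%. Even in CT they stayed a small part of the RNA. The mean share was 0.168% over the 4 CT libraries and 0.000573% over the 4 CG libraries, with an exact two-sided permutation p of 0.0286. This is the smallest p that the 70 arrangements of 4 against 4 libraries allow, and they exchange wild types and mutants freely. Alas2 and Slc4a1 gave the same p, and so did the sum of 6 adult globin genes. That p is fixed once all 4 CT libraries lie above all 4 CG libraries, so it adds nothing to that separation.

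Adding Hbb-bs and Hbb-bt, an alternative chosen after the data were seen, narrowed the gap between the lines but did not close it. The summed level of the 6 adult globin genes was 10.7, 16.8, 2.87 and 11.2 CPM in the CG libraries. It was 2658, 1557, 986.2 and 1388 CPM in the CT libraries. The log2 fold change was 7.26 between wild types (edgeR adjusted p = 0.000325) and 7.39 between mutants (0.000296), where it was 6.72 without CG mutant replicate 1 and 8.69 without CG mutant replicate 2.

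Within the CT line the erythroid messages stood in a near fixed proportion. The 6 adult globin genes varied 2.59-fold as a share of all counts, from 0.105% to 0.273%. Alas2 as a share of its own and those globin counts was 1.12%, 1.15%, 1.19% and 1.14% in the 4 CT libraries, which is a 1.06-fold range. Slc4a1 was 0.352% to 0.531%, a 1.51-fold range, with CT wild type replicate 2 the lowest. In the CG libraries the share of Alas2 was 0.474% to 2.97%, from 2 to 9 Alas2 counts. The CG libraries are too thin in these genes to show whether the proportion was the same.

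**Figure D3:**
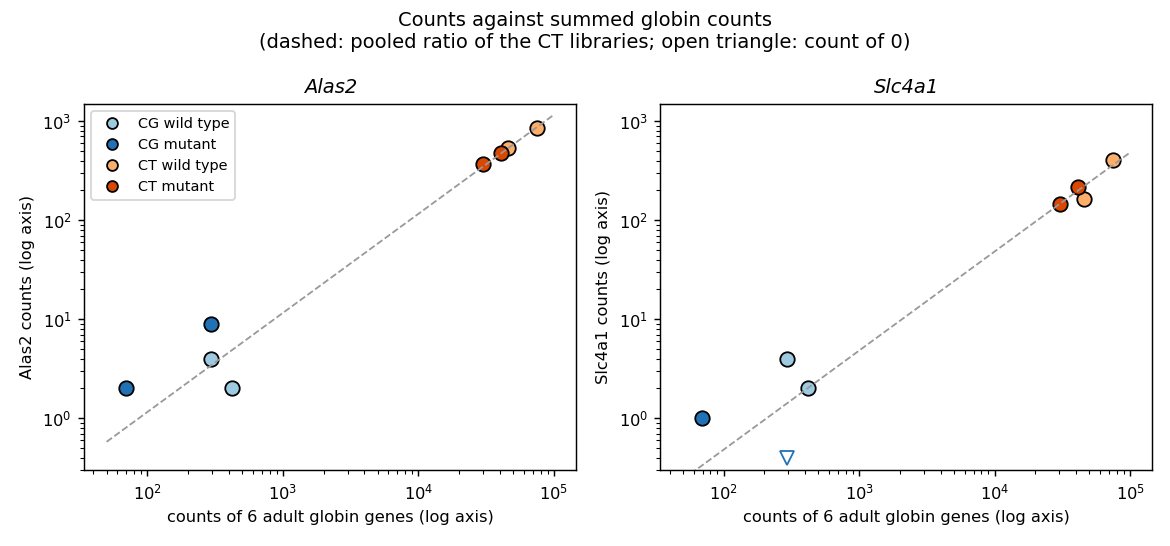
Counts of Alas2 and Slc4a1 against the summed counts of the 6 adult globin genes in the 8 libraries, both on log axes, with the pooled ratio of the CT libraries as a dashed line and counts of 0 as open triangles. The CT libraries follow the line most closely for Alas2, whose share ran from 1.12% to 1.19%, and the CG libraries lie at 0 to 9 counts.

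The mutant effect was far smaller than the line difference and did not pass the test for any of the 6 genes in either line. In the CG line 0 of 6 genes passed in edgeR and 0 of 6 in DESeq2, and 0 of 6 had an unadjusted edgeR p under 0.05, against 11.4% of all genes. Of all genes, 0.00696% were called there, which is 1 gene in edgeR. Both CG mutant libraries lay below both wild types for Hba-a1 and Slc4a1 and above them for Hbb-b1, where the counts are 0 to 1.17, and the groups overlapped for the other 3. Over all genes, both mutants lay below both wild types for 22.5% and above them for 23.2%.

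For Hba-a1 the CG mutant effect was a log2 fold change of -0.79 ± 0.50 (edgeR adjusted p = 0.588). It rested on CG mutant replicate 1: without that library it was -0.11 (edgeR adjusted p = 0.998), and without CG mutant replicate 2 it was -2.19 and passed (0.0241). The summed 4 globin genes behaved alike, at -0.79 ± 0.59 (edgeR adjusted p = 0.633), -0.11 without CG mutant replicate 1 and -2.19 without CG mutant replicate 2 (0.0883). The sum of 6 adult globin genes was at -0.95, at -0.29 without CG mutant replicate 1 and at -2.25 without CG mutant replicate 2, where it passed (edgeR adjusted p = 0.0487). For Alas2 and Slc4a1 the CG counts of 0 to 9 were too few to show a difference.

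In the CT line 0 of 6 genes passed in edgeR or DESeq2, against 0.00696% of all genes called in edgeR. Of the 6, 3 had an unadjusted edgeR p under 0.05, against 5.11% of all genes. Hba-a1 was at -0.93 ± 0.39 (log2, edgeR adjusted p = 0.958), Hbb-b1 at -1.21 ± 0.45 and Alas2 at -0.79 ± 0.30, each with the same adjusted p. The Hbb-b1 value includes CT mutant replicate 1, where Hbb-b1 and Hbb-b2 were only 51.2% of the adult beta counts. It ran from -2.16 to -0.65 when each library was left out. The 4 adult beta genes together were at 1175 and 710.7 CPM in CT wild types and 415.9 and 620.1 CPM in CT mutants. For Hba-a1, Hbb-b1, Hbb-b2 and Alas2 both CT mutant libraries lay below both wild types, which held for 16.3% of all genes. Hba-a2 and Slc4a1 overlapped. The direction for Hba-a2 turned with the library that was low in it: its log2 fold change of -0.18 became 4.46 without CT wild type replicate 1, with an edgeR adjusted p of 0.559.

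The summed 4 globin genes were at -0.97 ± 0.48 in CT mutants (edgeR unadjusted p = 0.0795, adjusted p = 0.957). The sum of 6 was at -0.83 (edgeR adjusted p = 0.958), with CT mutants at 986.2 and 1388 CPM below CT wild types at 2658 and 1557 CPM. Most neutrophil, lymphocyte and macrophage markers tested also lay lower in CT mutants, as given with those lists, and their part in this difference was not tested. In the authors' deposited table Hba-a1 had a log2 ratio of -0.93 between CT mutants and wild types with a q-value of 0.000233, and the other 5 genes had q-values of 0.246 to 0.999 there. The difference in mutant effect between the lines was -0.18 ± 0.76 (log2) for the summed 4 genes (edgeR adjusted p = 0.987), and 0 of 6 genes passed, with 0 of 6 at an unadjusted p under 0.05 and 0 of 6 in DESeq2. Over all genes 4.78% had such an unadjusted p and 0.0209% passed that test in edgeR.

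Hbb-bs had the largest mutant difference among the adult globin genes in CT, with a mean 42.14 times that of the wild types (log2 5.41 ± 1.33, edgeR unadjusted p = 0.00359, adjusted p = 0.958). Hbb-bt was at 4.68 ± 1.38 (edgeR adjusted p = 0.958). Both CT mutant libraries lay above both wild types for each, as for 17.2% of all genes, and most of the excess was in replicate 1.

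**Figure D4:**
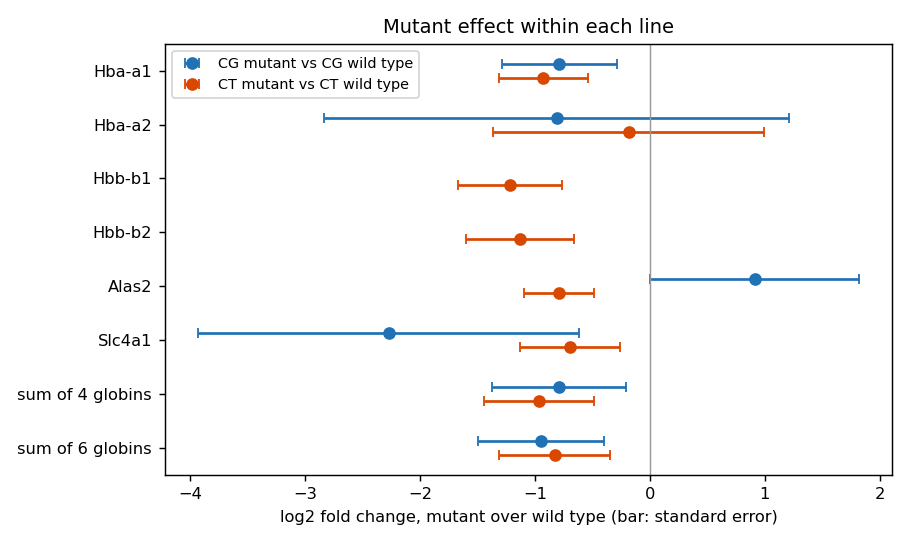
Log2 fold change of mutant over wild type in the CG line and the CT line for each gene and for the sums of 4 and 6 adult globin genes, with the standard error of the edgeR fit as bars. Hbb-b1 and Hbb-b2 are left out for CG, where counts were 0 to 1.17, and 0 of the values shown passed the test.

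Other genes of the red cell were taken from lists by role, whose counts stand against 17% of all genes called higher and 33.7% in either direction between wild types, and 17.9% and 36.1% between mutants. Of 16 genes of the erythroid membrane and surface, 11 were tested, and 5 were higher and 0 lower in CT wild types than in CG wild types. Kel, a blood group glycoprotein, was counted 0 to 1 times in CG and 4 to 18 times in CT (edgeR adjusted p = 0.0279). Dmtn, which bundles actin in the membrane skeleton, was higher by 0.90 ± 0.23 on the log2 scale (0.0204). Ank1, Gypc and Epb41 are also used outside the red cell and were the most abundant of the list. Ank1 was at 0.00108 (edgeR adjusted p = 0.996) and Gypc at 0.21 (0.369), while Epb41 passed at 0.41 (0.0283). Between mutants 4 were higher and 0 lower, with Epb41 at 0.01 (0.944). DESeq2 called 2 of 11 there, with Kel and Dmtn at adjusted p of 0.0693 and 0.0629. Rhag and Cldn13, both surface proteins of erythroid cells, were at 0 in every CG library and at 3 to 8 and 1 to 6 counts in CT.

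Erythroid transcription factors gave fewer calls than the membrane and surface list, and several had few counts. Klf1, the main activator of adult beta globin, was counted 2 to 7 times in CG and 3 to 10 times in CT. Gata1, the master regulator of the erythroid lineage, was counted 0 to 5 times in CG and 2 to 8 times in CT. Such counts are too few to show a difference. Of 12 genes of this list, which also holds receptor and chaperone genes, 6 were tested, and 2 were higher and 0 lower in CT wild types. Those were Hemgn, a nuclear protein of blood progenitors, at 0 to 3 counts in CG and 8 to 17 in CT (edgeR adjusted p = 0.0432), and Nfe2, a factor of red cells and megakaryocytes, at 1.30 ± 0.42 (log2, 0.0475). DESeq2 called 0 of the 6, with Hemgn at an adjusted p of 0.0819 and Nfe2 at 0.0686. Neither passed between mutants, where 0 of 6 genes were called in edgeR or in DESeq2 and 1 of 6 had an unadjusted edgeR p under 0.05. Of the 6 tested, 5 lay above 0 in each comparison. The median log2 fold change of the 6 was 0.871 between wild types and 1.07 between mutants. Tal1, a blood stem cell factor, was at 0.41 and 1.06 in the wild-type and mutant comparisons (edgeR adjusted p = 0.653 and 0.256). Zfpm1, the partner of Gata1, was at -0.35 and -0.21 (0.209 and 0.437).

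Genes of red cell enzymes and late maturation gave 5 higher and 0 lower of 8 tested between wild types, and 6 higher and 1 lower between mutants. Car2, carbonic anhydrase, was counted 12 to 30 times in CG and 71 to 168 times in CT, which is higher by 2.39 ± 0.44 (log2, edgeR adjusted p = 0.0057). Ube2o, which clears ribosomes from reticulocytes, was higher by 0.79 ± 0.12 (0.00232), Bnip3l, which clears their mitochondria, by 0.58 ± 0.12 (0.00923), and Bpgm, which makes 2,3-bisphosphoglycerate, by 0.64 ± 0.21 (0.0483). These last 3 were present at 104 or more counts in every library. Xpo7 was at 0.17 (0.18). Car1, the carbonic anhydrase most specific to red cells, was at 0 in every CG library and at 0 to 6 counts in CT.

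The 15 genes of the general path of haem synthesis, all tested, were called in both directions. Of these 2 were higher and 3 lower in CT wild types, and 2 were higher and 4 lower in CT mutants, against CG, which is near the 33.7% and 36.1% of all genes called. Alas1, the housekeeping counterpart of Alas2, was higher by 0.40 ± 0.10 (log2, edgeR adjusted p = 0.021) and Abcb10, a mitochondrial transporter, by 0.90 ± 0.10 (0.000881). Slc25a37, the mitochondrial iron importer mitoferrin of erythroid cells, was lower at -1.07 ± 0.11 (0.000547). Slc25a39, a mitochondrial carrier, was at 0.01 (0.977). Uros and Cpox, 2 later enzymes, were at -0.33 (0.0845) and -0.27 (0.362) between wild types and lower between mutants, at -0.72 (0.00477) and -0.85 (0.0189). The summed level of the 15 genes was 768 to 868 CPM in CG and 607 to 667 CPM in CT.

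Genes that handle haem and iron were mixed, with 2 higher and 5 lower of 20 tested between wild types and 5 higher and 6 lower between mutants. The first of these shares is near the 33.7% of all genes. Hp, haptoglobin, which binds free haemoglobin, was lower in CT at -4.04 ± 0.33 (log2, edgeR adjusted p = 0.000266). Fth1, ferritin heavy chain, was lower at -1.56 ± 0.24 (0.00257) and Lrp1, the receptor for haem bound to haemopexin, at -1.26 ± 0.15 (0.000914). Tfrc, the transferrin receptor, was higher by 0.60 ± 0.09 (0.00268). Hmox1, which breaks haem down, was at 0.55 ± 0.35 (0.255) between wild types and higher by 1.30 ± 0.35 (0.0232) between mutants. Ftl1, ferritin light chain, was at -0.41 (0.117) and -0.09 (0.721). Ncoa4, the receptor that sends ferritin for breakdown, was at -0.12 (0.268) and was lower between mutants at -0.50 (0.00244).

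Among the remaining globins, Hbq1b was counted 0 to 4 times in CG and 5 to 12.7 times in CT and passed between mutants (edgeR adjusted p = 0.0243) and not between wild types (0.178). Ngb, neuroglobin, was lower in CT wild types at -1.85 ± 0.53 (0.0305, and 0.112 in DESeq2) and was at -1.55 (0.0702) between mutants. Cygb, the globin of fibroblasts, was at 0.24 (0.791) and 0.96 (0.216). The embryonic Hba-x was counted 0 to 2 times in each library. Leaving out a single library ended the wild-type calls of Hemgn, Nfe2, Kel, Dmtn, Epb41, Bpgm, Bnip3l, Alas1 and Ngb, and the mutant calls of Kel, Dmtn, Hbq1b, Cpox, Hmox1, Bpgm and Alas1, with edgeR adjusted p of 0.0534 to 0.216 where a call was lost. The line calls of Car2, Ube2o, Slc25a37, Abcb10, Hp, Lrp1, Fth1 and Tfrc held without each library in turn. No gene of the 12 lists of erythroid, haem and other cell type genes passed a mutant comparison in edgeR. Of their 123 genes tested, 14 had an unadjusted p under 0.05 in the CG line, where 11.4% of all genes did, and 21 in the CT line, where 5.11% did. DESeq2 called 2 of them in the CG line, Ftl1 and Ncoa4, and 3 in the CT line, the neutrophil genes Ltf, Camp and Ngp.

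Markers of other blood and vessel cells also differed between the lines, and their part in the globin levels was not tested. Their calls stand against 17% of all genes called higher in CT wild types and 33.7% called in either direction. The summed level of 9 lymphocyte markers was 0.789 to 1.64 CPM in CG and 2.29 to 10.6 CPM in CT, with 3 of 3 tested genes higher in CT wild types and Ms4a1 at 0 in every CG library. Cd79b, a B cell receptor chain, was higher by 3.24 ± 0.58 (log2, edgeR adjusted p = 0.00527), and Cd79a by 2.15 ± 0.51 (0.0153). The sum of 10 endothelial markers was 18.4 to 48.9 CPM in CG and 75.6 to 138 CPM in CT, with 5 higher and 0 lower of 10 and 0 of 10 at 0. Pecam1 was higher by 1.28 ± 0.42 (0.0472), and Cdh5 was at 1.61 ± 0.55 (0.0546).

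The sum of 10 platelet and megakaryocyte markers overlapped, at 12.6 to 25.9 CPM in CG and 16.2 to 22.4 CPM in CT, with 0 higher and 1 lower of 8 tested. Of these, Gp1bb was lower in CT wild types at -0.97 (edgeR adjusted p = 0.0123) and Itga2b was at 0.25 (0.632). Macrophage markers summed to 333 to 567 CPM in CG and 324 to 370 CPM in CT, with 4 higher and 1 lower of 10, Cd14 lower at -0.98 (0.00323) and Cd68 at 0.30 (0.416). The 12 chondrocyte markers summed to 34800 to 59600 CPM in CG and 45300 to 66700 CPM in CT, with 6 higher and 0 lower of 12. Calls in these lists stand against the same 17% and 33.7% of all genes. Among the chondrocyte markers Col2a1 was higher by 0.84 ± 0.27 (0.0436) and Acan was at -0.29 (0.42).

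Of the neutrophil markers, 7 of 14 tested were higher in CT wild types and 1 was lower, with a median log2 fold change of 1.87. Over all genes 17% were called higher there and 33.7% in either direction. Some genes of neutrophil granules were among those that rose. The ratios of Ltf and Ngp between wild types were of the order of those of Hba-a2 and Slc4a1, the lowest among the 6 genes. Camp, of the same list, was at 6.85 and 8.3 CPM in CG wild types and 8.11 and 8.57 CPM in CT wild types. Ltf, lactoferrin, was at 0.326 and 0.399 CPM in CG wild types and 31.3 and 23.7 CPM in CT wild types, a ratio of 75.9 (edgeR adjusted p = 0.000154). Ngp, neutrophilic granule protein, was 61.8-fold higher (0.000197), and S100a8 and S100a9, the calprotectin subunits, 6.78-fold (0.00756) and 8.86-fold (0.00728). Between mutants Ltf was 14.5-fold (edgeR adjusted p = 0.000504) and Ngp 11-fold higher in CT (0.000771). These ratios lay below those of Hba-a2 (123.9) and Slc4a1 (305.4, from 1 count in CG). Between mutants 4 of 14 neutrophil genes were higher and 3 lower, where 17.9% of all genes were called higher and 36.1% in either direction. The summed level of the list went the other way, at 2220 to 4470 CPM in CG and 272 to 449 CPM in CT, of which Lcn2 alone was 2160 to 4420 CPM in CG. Lcn2, a secreted protein not confined to neutrophils, was lower in CT wild types at -4.15 ± 0.35 (log2, edgeR adjusted p = 0.000277), and Mmp9 was at -1.15 (0.0811). Without Lcn2 the other 14 genes summed to 45.6 to 96.6 CPM in CG and 87 to 274 CPM in CT.

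Within the CT line, where the globin genes were lower in mutants without passing the test, most neutrophil, lymphocyte and macrophage genes tested lay lower too. For neutrophil genes the median log2 fold change of CT mutants over CT wild types was -1.2, with 1 of 14 above 0, 7 of 14 at an unadjusted edgeR p under 0.05 and 0 passing. Without Lcn2 they summed to 171 to 274 CPM in CT wild types and 87 to 108 CPM in CT mutants. Ltf was at -1.56 (log2, edgeR adjusted p = 0.681, DESeq2 adjusted p = 0.000316), Camp at -1.27 (0.272 and 0.000844) and Ngp at -1.44 (0.958 and 0.00249). The median was -1.31 for lymphocyte genes, with 0 of 3 above 0, and -0.67 for macrophage genes, with 2 of 10 above 0. Over all genes it was -0.00255, with 49.4% above 0. For endothelial genes it was -0.0824 and for chondrocyte genes -0.228.

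**Figure D5:**
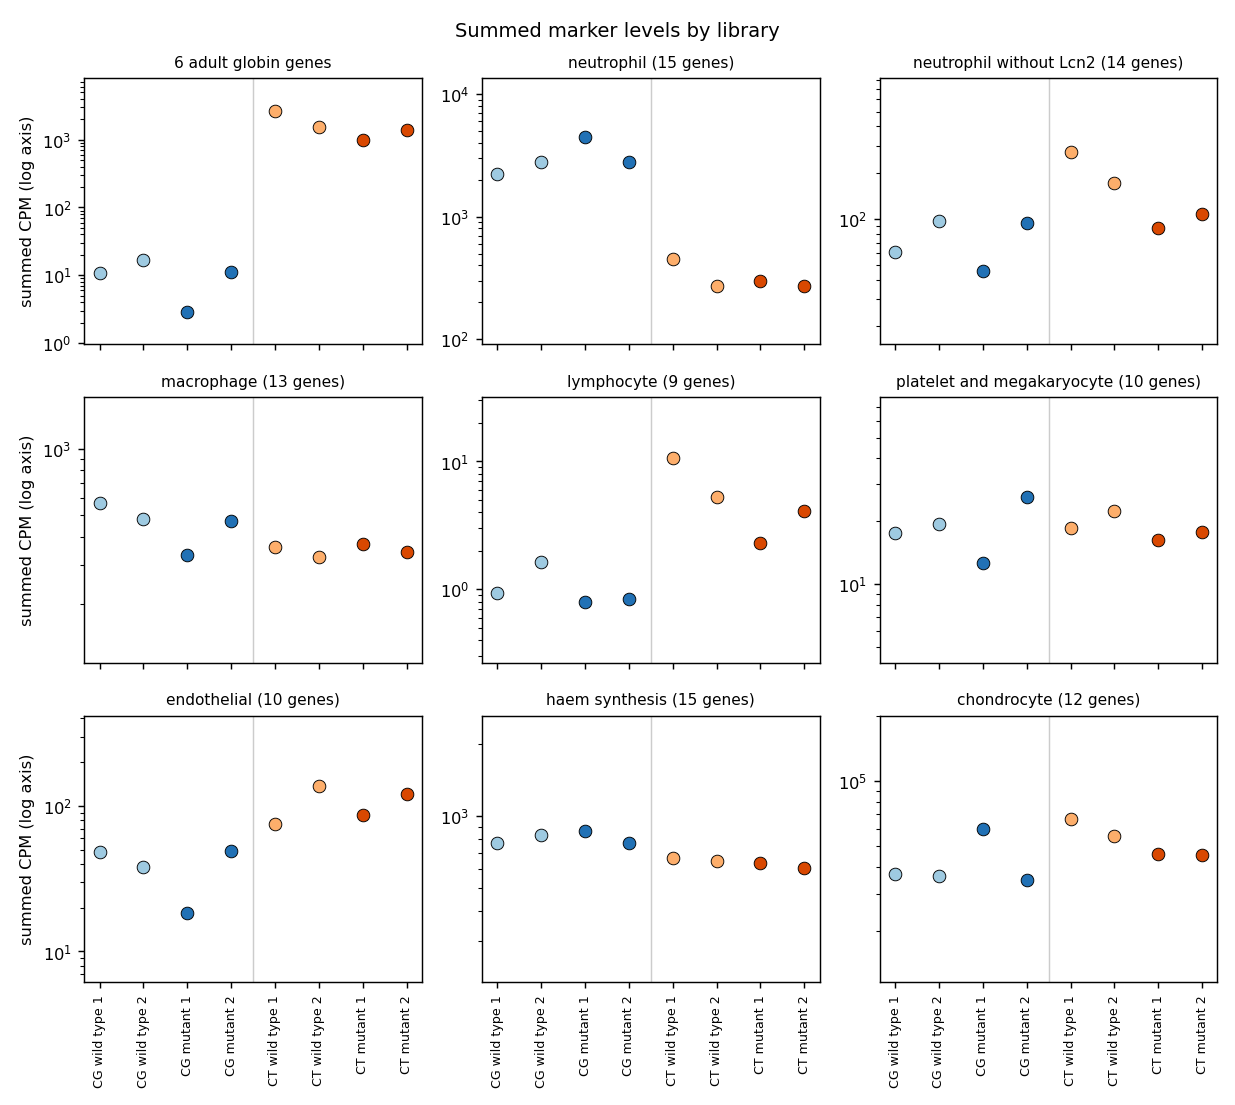
Summed CPM, on log axes, of the 6 adult globin genes and of 7 gene lists in each library, with the neutrophil list also shown without Lcn2. The globin sum differs between the lines by more than any list sum shown. Lymphocyte and endothelial sums are higher in CT, the haem synthesis sum is lower, the neutrophil sum is lower with Lcn2 and overlaps without it, at 45.6 to 96.6 CPM in CG and 87 to 274 CPM in CT, and platelet, macrophage and chondrocyte sums overlap.

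The genes whose log2 CPM followed the summed 4 globin genes most closely over the 8 libraries, among 11221 whose average log2 CPM was 1 or more, were Zrsr1, Aldoa, Hk1, Polh, Ung, Cdk2, Top2a and Tnfsf9. Their Pearson r was 0.993 to 0.996. The libraries form 2 clusters by line, so a gene that differs between the lines has a high r whatever it does within them. Of all ranked genes, 641 had an r of at least 0.95 and 657 an r of at most -0.95. The size of the change was of another order: Aldoa, an enzyme of glycolysis, had a mean of 607 CPM in CG and 984 CPM in CT, and Hk1, hexokinase, 58.3 and 158 CPM. By Spearman's rho 0 of these 8 genes were among the 11 at or above the eighth highest value. Their rho was still 0.81 (Tnfsf9, rank 862) to 0.976 (Aldoa, rank 12).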

How the data were processed

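RNA-seq of plated rib chondrocytes gave 8 libraries in 4 groups of 2. Per the submitters' processing notes, HISAT2 2.0.4 and the mm9 build were used. Read counter and annotation were not given in the sources used here. Per the file headers the authors deposited a read count per gene and library, here an estimated count with no normalization, and an FPKM value normalized by the authors for length and depth. The estimated counts deposited were rounded before testing. A further table deposited by the authors holds their own log2 ratios and q-values, from a tool not named in these sources. Symbols of 24 genes turned into dates by a spreadsheet were restored from Entrez IDs.

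Differences were tested with edgeR 4.0.16 in R 4.3.3 (quasi-likelihood test, TMM factors, default low-count filter, 14359 genes, 1 fit of 4 group means with 4 residual degrees of freedom, Benjamini-Hochberg adjustment, threshold 0.05). Each SE was derived from the log2 fold change and the F statistic of its test. Summed globin genes replaced their rows in a fit of the whole table. The fit was tested on simulated data. No 2 libraries agreed within sampling noise (chi-square per degree of freedom 19.3 or more within groups). DESeq2 1.42.0, limma 3.58.1 on log2(FPKM + 1) or log2(FPKM + 0.1), RLE factors, no filter, leaving out each library, a replicate block and fits of only the groups compared were alternatives. The members and gene lists were chosen with earlier results of these data known. Named were the 6 genes, the top 3 of each erythroid, globin, haem and iron list by mean CPM with up to 5 that passed a line comparison, the top 2 of each other cell type list, and the 8 closest to the globin sum; Rhag, Cldn13, Car1, Klf1, Gata1, Hba-x, Ms4a1, Ltf, Ngp, S100a8, S100a9 and Camp were named after their values were seen. Sequences came from GENCODE M21 on GRCm38 and RefSeq on GRCm38.p6, not from the build of the counts; 18381 Entrez IDs matched RefSeq. Results of some listed genes are not reported here.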

Additional observations from a re-analysis of the deposited data

How the results depend on the processing

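The line differences of the summed globin genes kept their direction and passed the test under every alternative run. So did those of Hba-a1, Hbb-b1, Hbb-b2, Alas2 and Slc4a1, while Hba-a2 missed the threshold between wild types on log2(FPKM + 1) (log2 4.42, limma adjusted p = 0.0542) and without the libraries already named. Where no cause is given below, the cause was not tested. Leaving out a library leaves 1 in its group, which is then assumed to vary like the others. With 2 libraries a group, and 0 to 9 counts of Alas2 and Slc4a1 per CG library, depth limits what could be seen in the CG line.

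The number of genes called in the CG mutant comparison, 1, became 205 with DESeq2, 13 with no low-count filter, 4 on log2(FPKM + 1) and 3 on log2(FPKM + 0.1), and ran from 1 to 522 when each library was left out. In the CT mutant comparison, also 1, it became 20, 2 and 3 with DESeq2, no filter and log2(FPKM + 1), 3 with only the groups compared, and 0 to 4 without a library. For the difference between the lines, 3, it became 38 with DESeq2, 5 with no filter and 1 to 97 without a library, the highest without CG mutant replicate 2. Between wild types the 4843 calls ran from 2137 to 5324 without a library, lowest without CG wild type replicate 2, with 2431 when CG wild type replicate 1 was left out and 3092 when CT wild type replicate 2 was. Between mutants the 5184 calls ran from 2908 to 5210, at 2931 without CT mutant replicate 1 and lowest without CT mutant replicate 2.

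The deviations of same-numbered libraries had a correlation over genes of -0.0892 in CG and 0.248 in CT. The labels do not say what a number marks, so the numbers were not taken to pair the libraries, and the replicate block is given only here. With the block 4 genes were called in the CT mutant comparison and 6 for the difference between the lines. Under the block Hbb-bs and Hbb-bt passed in the CT mutant comparison (log2 5.42 and 4.64, edgeR adjusted p = 0.00176 and 0.0216), for the difference between the lines (6.52 and 6.99) and between wild types, lower in CT (-2.003 and -1.958). Hba-a2 was at 1.41 in the CT mutant comparison with the block, Ank1 at -0.0137 between wild types and Gypc at 0.000722 between mutants. With the block Hemgn, Nfe2 and Bpgm missed the threshold between wild types and Kel, Dmtn and Hbq1b between mutants, and no call of the 6 genes changed in the 4 comparisons of groups.

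The difference in mutant effect between the lines for the summed 4 globin genes, -0.18, changed sign to 0.11 and 0.24 on log2(FPKM + 1) and log2(FPKM + 0.1), and ran from -0.86 to 1.22 without a library. For the 6 adult globin genes it was 0.12 and ran from -0.54 to 1.43. The mean share of all counts, 0.000729% in CG wild types, 0.000416% in CG mutants, 0.219% in CT wild types and 0.116% in CT mutants, was 0%, 4.21e-06%, 0.0978% and 0.0441% for the beta rows alone, 0.121% for the alpha rows alone in CT wild types, and 0.00131% with Hbb-bs and Hbb-bt in CG wild types. These shifts follow from which rows are summed.

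Signs of values that did not pass turned as follows. The CT mutant effect on Hba-a2 was 1.62 and 1.66 on log2(FPKM + 1) and log2(FPKM + 0.1) and -1.16 to 4.46 without a library, and that on Slc4a1 -1.22 to 0.14. The CG mutant effect ran from -0.43 to 1.56 for Alas2 and from -2.29 to 0.0111 for Hba-a2. Between wild types the range without a library was -3.89 to 0.0771 for Hbb-bt, -0.25 to 0.22 for Ank1, -0.49 to 0.71 for Cygb and -0.12 to 0.14 for Slc25a39. Ncoa4 was at 0.0140 and 0.0145 on the FPKM scales and Ank1 at -0.000689 with only the groups compared. Between mutants the range was -0.236 to 0.0252 for Ank1, -0.0936 to 0.114 for Epb41, -0.37 to 0.23 for Ftl1, -0.19 to 0.20 for Gypc and -0.48 to 0.0112 for Zfpm1. Gypc was at 4.65e-05 with RLE factors, 8.02e-05 with DESeq2, 0.25 and 0.27 on the FPKM scales and 0.00101 with only the groups compared. On those scales Ftl1 was at 0.16 and 0.16 and Ank1 at 0.0844 and 0.10.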
